A study of Mus musculus with 2 samples.

Results

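J-domain co-chaperones (the Dnaja, Dnajb and Dnajc genes) were taken as every gene whose array symbol begins with Dnaj, a class letter A, B or C and a number, on a probe set naming that gene alone. The rule found 45 genes among 19946, with 4 in class A, 13 in class B and 28 in class C. Of these, 39 were detected (4, 10 and 25 by class), and the other 6 lay under the detection limit in both arrays. The cells were mouse embryonic fibroblasts, which are connective tissue cells cultured from embryos, and both cultures carried an adenovirus that expresses LacZ, a bacterial enzyme gene. One culture received DMSO, the solvent, and the other 250 nM celastrol, a plant triterpenoid of the thunder god vine, for 7 h in medium with 1% serum. The labels name no strain, genotype or embryo age, and they do not say whether the cells were a primary culture or a line. Transcripts were read on 1 array per culture, so no difference has a replicate check, no p-value or error can be given, and an effect of the treatment cannot be told apart from one of the culture or the array.

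J-domain proteins are the partners that switch HSP70 chaperones on. Their J domain carries a histidine-proline-aspartate motif that stimulates the ATPase of HSP70, which then closes on an unfolded client. Class A proteins resemble bacterial DnaJ, with a glycine/phenylalanine stretch and a zinc finger, class B proteins lack the zinc finger, and class C proteins share only the J domain and are otherwise diverse. Several class A and B genes of the cytosol are induced by the heat shock factor HSF1, and several genes of the endoplasmic reticulum (ER) are induced when unfolded proteins accumulate there.

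The promoters of the members whose results are described most are given first, because heat shock and ER stress factors are known to act through short motifs close to gene starts. Sequences are from RefSeq on GRCm38.p6, from 250 bases before to 50 bases after a gene start, 5′ to 3′ on the gene's strand. Such windows were found for 37 of the 45 members and for 32 of the 39 detected ones, and 11 members had several. Capitals mark matches to GAANNTTC or TTCNNGAA, the pairings of adjacent heat shock element units, or to the ER stress response element, CCAAT followed after 9 free bases by CCACG. These genes were chosen after their values and matches were seen. They are 5 with a match and the highest gene of the cytosol and of the ER, whose windows have none.
Dnajb4 (chr3:152193796-152194095, - strand): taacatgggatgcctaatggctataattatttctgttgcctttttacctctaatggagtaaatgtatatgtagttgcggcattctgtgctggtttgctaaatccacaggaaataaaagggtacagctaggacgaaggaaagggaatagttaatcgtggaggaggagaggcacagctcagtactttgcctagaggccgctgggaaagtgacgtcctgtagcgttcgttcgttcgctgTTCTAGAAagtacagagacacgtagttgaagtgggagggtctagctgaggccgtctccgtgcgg
Dnaja1 (chr4:40722218-40722517, + strand): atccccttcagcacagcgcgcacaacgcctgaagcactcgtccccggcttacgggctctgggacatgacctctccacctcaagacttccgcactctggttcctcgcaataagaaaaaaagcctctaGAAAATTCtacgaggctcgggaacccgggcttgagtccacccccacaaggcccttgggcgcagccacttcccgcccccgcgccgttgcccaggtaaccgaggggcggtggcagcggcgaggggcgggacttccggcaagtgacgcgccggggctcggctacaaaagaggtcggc
Dnaja4 (chr9:54699309-54699608, + strand): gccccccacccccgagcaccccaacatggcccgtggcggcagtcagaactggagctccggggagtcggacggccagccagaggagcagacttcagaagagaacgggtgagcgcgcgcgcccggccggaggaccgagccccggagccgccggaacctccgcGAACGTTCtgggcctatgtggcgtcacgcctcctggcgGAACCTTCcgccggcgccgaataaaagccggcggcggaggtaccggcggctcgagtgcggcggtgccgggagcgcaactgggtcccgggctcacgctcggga
Dnajb6 (chr5:29735648-29735947, + strand): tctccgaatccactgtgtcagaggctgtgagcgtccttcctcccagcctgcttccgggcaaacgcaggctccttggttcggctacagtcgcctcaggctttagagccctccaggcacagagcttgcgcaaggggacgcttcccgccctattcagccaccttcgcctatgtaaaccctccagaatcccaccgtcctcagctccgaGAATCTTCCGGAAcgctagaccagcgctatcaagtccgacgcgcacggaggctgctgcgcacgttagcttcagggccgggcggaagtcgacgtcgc
Dnajc3 (chr14:118937682-118937981, + strand): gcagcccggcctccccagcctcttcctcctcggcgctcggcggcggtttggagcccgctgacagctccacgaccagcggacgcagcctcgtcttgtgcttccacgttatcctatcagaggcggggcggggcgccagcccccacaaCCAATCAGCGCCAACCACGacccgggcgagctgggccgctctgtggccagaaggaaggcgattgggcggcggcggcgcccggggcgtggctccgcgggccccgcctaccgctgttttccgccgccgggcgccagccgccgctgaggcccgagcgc
Dnajb1 (chr8:83607925-83608224, + strand): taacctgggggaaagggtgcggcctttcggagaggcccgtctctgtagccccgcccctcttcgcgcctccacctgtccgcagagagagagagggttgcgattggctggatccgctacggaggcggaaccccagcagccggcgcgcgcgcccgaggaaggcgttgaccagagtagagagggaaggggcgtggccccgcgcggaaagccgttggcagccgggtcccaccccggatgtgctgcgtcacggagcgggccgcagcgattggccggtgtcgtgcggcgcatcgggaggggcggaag
Dnajb9 (chr12:44210019-44210318, - strand): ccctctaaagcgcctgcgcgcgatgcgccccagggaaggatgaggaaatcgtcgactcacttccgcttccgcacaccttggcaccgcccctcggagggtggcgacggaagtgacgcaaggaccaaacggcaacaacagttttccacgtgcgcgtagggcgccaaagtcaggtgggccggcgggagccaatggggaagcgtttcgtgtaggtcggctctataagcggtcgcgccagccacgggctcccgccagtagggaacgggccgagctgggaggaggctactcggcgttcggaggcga

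A pair of heat shock units, in either order, was found in a window of 3 of the 5 members that were at least 2-fold higher, of 3 of the 27 other detected members, and of 17.0% of 27025 genes. Genes with more annotated starts have more windows to match, and the 5 had 10 windows, or 2.0 a gene, where all genes had 1.22. By window, 3 of those 10 held a pair, and 15.1% of all 32851 windows did. Dnajb4 had 1 match, 14 bases before 1 of its 2 starts, and Dnaja1 had 1, 124 bases before 1 of its 3 starts. Dnaja4 had 2 matches before 1 of its 2 starts, the first 90 bases away, and the other windows of these 3 genes had none and are not printed. The longer motif of 3 units, GAANNTTC followed after 2 free bases by GAA, was found in 1 detected member, Dnajb6, where it contains both shorter matches. It begins 46 bases before 1 of the 2 Dnajb6 starts, whose window is printed, and 127 bases before the other. Over the 27025 genes, GAANNTTC was found in 9.04%, TTCNNGAA in 9.60% and the motif of 3 units in 0.662%, on either strand. Among the 27 detected members below 2-fold, GAANNTTC was found in Dnajb6 and Dnajc27, and TTCNNGAA in Dnajb6 and Dnajc10. The ER stress response element was found in 0.137% of genes and in 1 detected member, Dnajc3. TGATGNAA, the amino acid response element read by ATF4 type factors, was found in 4.51% of genes and in 0 of the 32 members. A match is a description of letters in this window, and no match says only that these letters are not in it.

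The RMA values of the arrays are log2 levels, and a difference is the celastrol minus the DMSO value. The limit of detection was 5.73, the 95th percentile over 1210 olfactory and vomeronasal receptor probe sets, genes of sensory neurons that should be silent in fibroblasts. The central 95% of those probe sets differed by between -0.42 and 0.41, which gives a scale of scatter within these arrays but not between cultures. This receptor range is read near background and may not hold at the higher levels of most members. Inside it lay 10885 of the 13902 detected genes, and a difference inside it is no sign that a gene was unchanged. Fibroblast identity was checked on 10 markers, of which 9 were detected, including Col1a1, Vim and Fn1, while Lum was under the limit in both arrays. Col1a1 was at 12.16 with DMSO and 11.69 with celastrol, a difference of -0.46 and just beyond the scatter of the receptor probe sets, Col1a2 differed by -0.42 and Pdgfrb by -0.41. The median over the 10 fibroblast markers was -0.14, and their summed log2 level was 102.6 and 101.2. Of the leukocyte markers, Ptprc, Itgam and Adgre1 were under the limit in both arrays. Cd68 was at 6.86 with DMSO and 8.33 with celastrol, and Csf1r at 5.99 and 6.25. The summed log2 level of all 5 was 27.96 and 29.75, with a median difference of 0.22. Of the muscle markers, 3 of 4 were detected, and Myog was not. Tnnt2 was at 8.34 and 9.21, Myod1 differed by 0.34 and Des by 0.32. The summed log2 level of the muscle markers was 25.7 and 27.0, with a median difference of 0.33. Of the endothelial, epithelial and germ cell markers, 1 of 4, 3 of 4 and 2 of 5 were detected, with median differences of 0.12, 0.05 and 0.16. The part of other cell types in the results was not tested.

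As a family the J-domain genes had no common direction, and a few members were much higher with celastrol. Of 39 detected members, 19 were higher and 20 lower with celastrol, with a median log2 difference of -0.01 beside -0.01 for all 13902 detected genes. In bulk RNA, fewer cells expressing a gene and less RNA per cell cannot be told apart. A difference of 2-fold or more upward was found for 5 members, where 1.88% of detected genes were 2-fold higher. These were Dnajb1, Dnajb4, Dnajb9, Dnaja4 and Dnaja1, and Dnajb2 lay just under, at 1.97-fold, and passed 2-fold under quantile normalization or a lowess adjustment. A difference of 2-fold or more downward was found for 0 members, a count that says little, since 0.662% of detected genes were. Of the 39, 31 differed by no more than the central 95% of receptor probe sets, 7 lay above it and 1 below, beside 11.2% and 10.5% of all detected genes above and below.

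**Figure D1:**
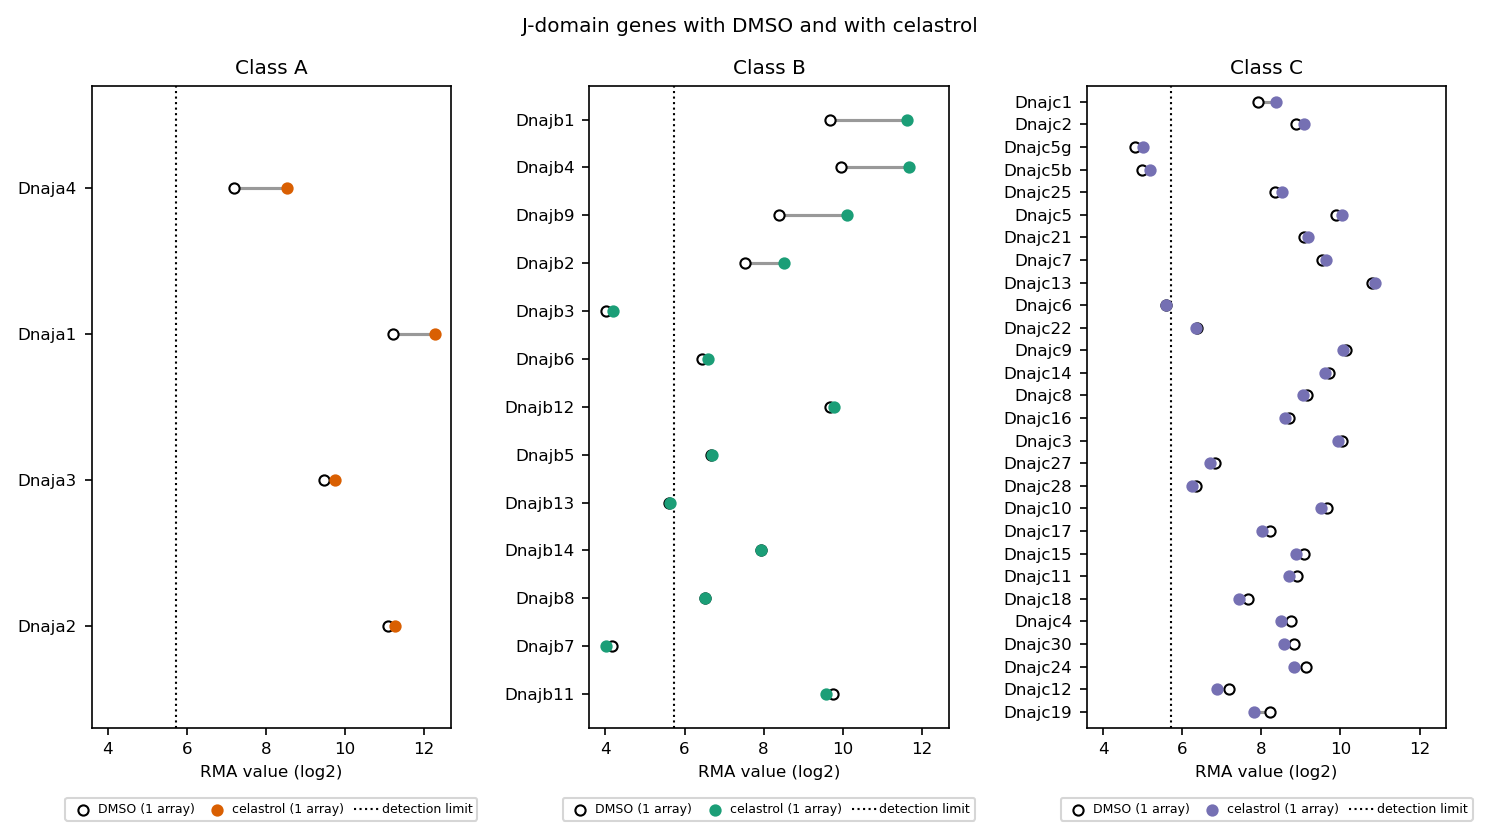
RMA values (log2, x axis) of all 45 J-domain genes with DMSO (open) and celastrol (filled), 1 array each, by class and ordered by difference, with the detection limit of 5.73 dotted. The long lines belong to 6 genes of classes A and B, while every class C pair lies close together; levels are not comparable between genes.

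The classes differed in how their members were placed. All 4 class A genes were higher, 2 of them at least 2-fold, with a median of 0.66. In class B, 8 of 10 detected genes were higher and 3 at least 2-fold, with a median of 0.12 and a range from -0.18 to 1.93. In class C, 7 of 25 detected genes were higher and 18 lower, with a median of -0.11 and a range from -0.42 to 0.45, and 0 reached 1.5-fold in either direction. Across all detected genes 48.1% were higher, 6.19% were higher by 1.5-fold or more and 4.68% lower by as much. The difference between classes was not tested, since genes of these arrays are no replicates.

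**Figure D2:**
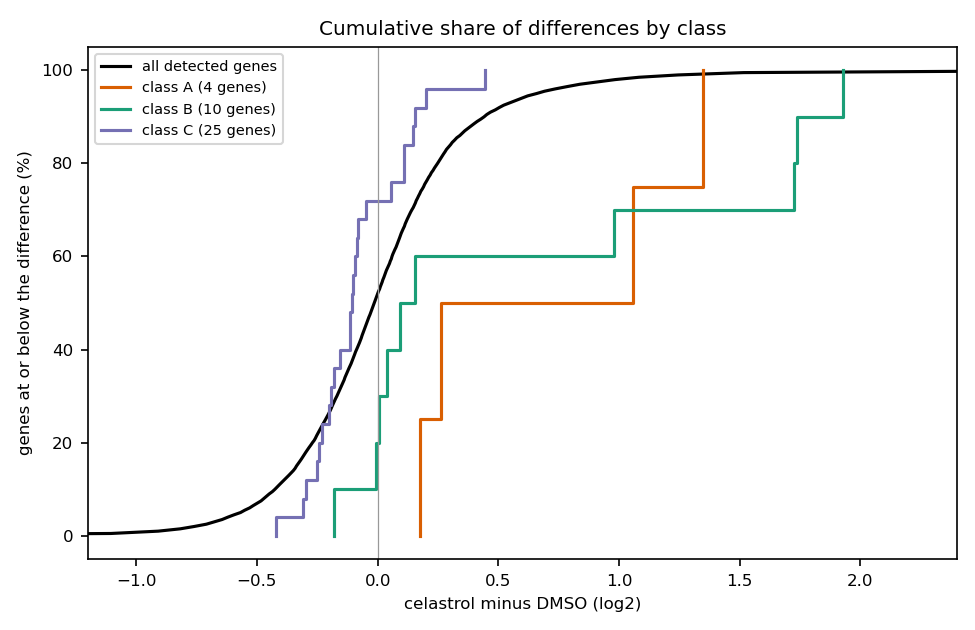
Cumulative share (%, y axis) of detected genes at or below each log2 difference (x axis) for class A, B and C and for all 13902 detected genes. Class C is narrow, from -0.42 to 0.45, and the genes of classes A and B lie either between -0.18 and 0.26 or at 0.98 and above.

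Cytosolic class A and B genes, which encode the general partners of HSP70 for protein folding, were all higher. Their 8 members had a median difference of 1.02 and ran from 0.04 to 1.93. Above the receptor range lay 5 of them, beside 11.2% of detected genes. The other 3, Dnaja2, Dnajb5 and Dnajb6, were higher only within that range. For Dnajb6 this rests on a dim probe set, and 4 brighter ones that also name Gm4247 lay above the range. At least 2-fold higher were 4 of the 8, where 1.88% of detected genes were. Over all detected genes 48.1% were higher. Dnajb1, the stress-inducible HSP40, measured 9.69 with DMSO and 11.62 with celastrol, which is 3.80-fold higher and rank 24 from the top among 13902 genes. Dnajb4, its close relative HLJ1, was at 9.94 and 11.68, 3.34-fold higher and rank 43. Dnajb5, a further relative of Dnajb1, was at 6.67 and 6.71, a difference of 0.04. By value these 3 genes of related sequence lay at opposite ends of the group. Dnajb5 was above the detection limit but dim, near the germ cell marker Prm2, at 6.78 with DMSO and 6.66 with celastrol. RMA shrinks differences near background, and whether the Dnajb5 probe set could show a larger difference was not tested.

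Among the farnesylated class A genes of the cytosol, Dnaja4 measured 7.18 with DMSO and 8.53 with celastrol, which is 2.55-fold higher. Dnaja1 was at 11.21 and 12.26, 2.08-fold higher, and the log2 difference on its other probe set was 1.19. Dnaja2, a constitutive gene of the same kind, was at 11.08 and 11.26, a difference of 0.17, within the receptor range. Dnajb2, whose product has ubiquitin-interacting motifs and passes clients to the proteasome, was at 7.54 and 8.52, a difference of 0.98. Dnajb6, which keeps polyglutamine proteins from aggregating, was at 6.44 and 6.60 on the only probe set naming it alone, and brighter probe sets that also name Gm4247 are described in the closing observations.

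Class C genes of the cytosol and nucleus, which serve narrow tasks, showed no such shift. Of 8 members 3 were higher and 5 lower, with a median of -0.09 and a range from -0.31 to 0.20. The ribosome-bound Dnajc2 was highest at 8.88 with DMSO and 9.08 with celastrol. The ribosome biogenesis factor Dnajc21 (0.11) and the tetratricopeptide protein Dnajc7 (0.11) were the other higher members. Dnajc12, a co-chaperone of phenylalanine hydroxylase, was lowest at 7.19 and 6.88, followed by Dnajc24, an enzyme partner in diphthamide synthesis, at 9.13 and 8.83. The splicing-linked Dnajc17 (-0.18) and Dnajc8 (-0.09) and the histone co-chaperone Dnajc9 (-0.08) lay nearer 0. All 8 were inside the range of the receptor probe sets, as were 10885 of all 13902 detected genes.

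**Figure D3:**
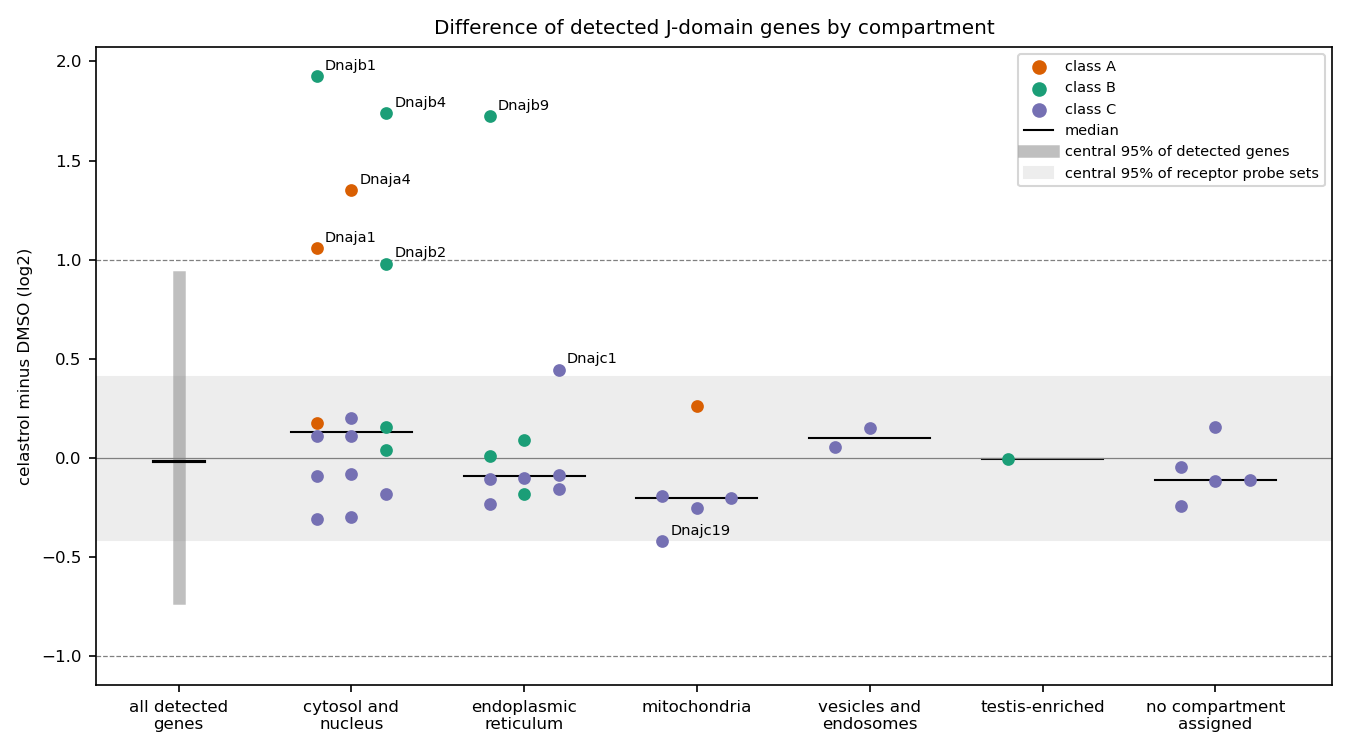
Log2 difference (celastrol minus DMSO, y axis) of the 39 detected J-domain genes by compartment, coloured by class, with the median of each group, beside the median and central 95% of all detected genes. Of the 5 points above 1.0 (2-fold, dashed), 4 are cytosolic and 1, Dnajb9, is of the ER. Mitochondrial class C genes are all below 0, beside 18 of all 25 class C genes, and 3 of the 4 lie inside the central 95% of receptor probe sets. That range holds 10885 of all 13902 detected genes.

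In the ER, 1 gene stood far above the rest. Dnajb9 (ERdj4), which helps in ER-associated degradation and holds the stress sensor IRE1 inactive, measured 8.39 with DMSO and 10.12 with celastrol, which is 3.30-fold higher and rank 44 among detected genes. The next was Dnajc1 (ERdj1), a membrane protein at the ribosome, at 7.93 and 8.37, a difference of 0.45. The other 8 ER members ran from -0.23 to 0.09, and the median of all 10 was -0.09, with 4 higher and 6 lower. The other lumenal co-chaperones of BiP had slightly lower values. Dnajb11 (ERdj3) was at 9.75 and 9.57, the disulfide reductase Dnajc10 (ERdj5) at 9.66 and 9.51, and Dnajc3 (ERdj6, also p58IPK) at 10.05 and 9.94. None of these 3 left the receptor range, inside which 10885 of all 13902 detected genes lay. The ER membrane pair Dnajb12 (0.09) and Dnajb14 (0.01) and the membrane proteins Dnajc14 (-0.09), Dnajc16 (-0.10) and Dnajc18 (-0.23) were also inside it.

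Mitochondrial class C genes were lower without exception, by small amounts, but 18 of all 25 detected class C genes were also lower. Of the ER class C genes, 5 of 6 were lower. The receptor range held 3 of the 4 mitochondrial ones, and 10885 of all 13902 detected genes. Dnajc19 (TIM14), a subunit of the import motor at the inner membrane, was at 8.23 with DMSO and 7.81 with celastrol, a difference of -0.42, the lowest of all members and just outside the receptor range. Its relative Dnajc15 was at 9.08 and 8.88, Dnajc30 at 8.83 and 8.58, and Dnajc11, a protein linked to cristae organisation, at 8.91 and 8.70. The matrix class A gene Dnaja3 (Tid1) went the other way, at 9.47 and 9.73, a difference of 0.26. Over these 5 genes the median was -0.20, and 51.9% of all detected genes were lower.

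Vesicle and endosome genes differed little. Dnajc5, the cysteine string protein of synaptic and secretory vesicles, was at 9.88 with DMSO and 10.03 with celastrol. Dnajc13 (RME-8), of endosomes, was at 10.81 and 10.87. Dnajc13 is the best sampled member, with 15 probe sets naming it alone, and all 15 were higher, by between 0.06 and 0.17 with a median of 0.10. The probe set used for the gene, its brightest, gave the lowest of these values, and probe sets of 1 gene on the same arrays are no replicates. Dnajc6, auxilin, was under the detection limit in both arrays.

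**Figure D4:**
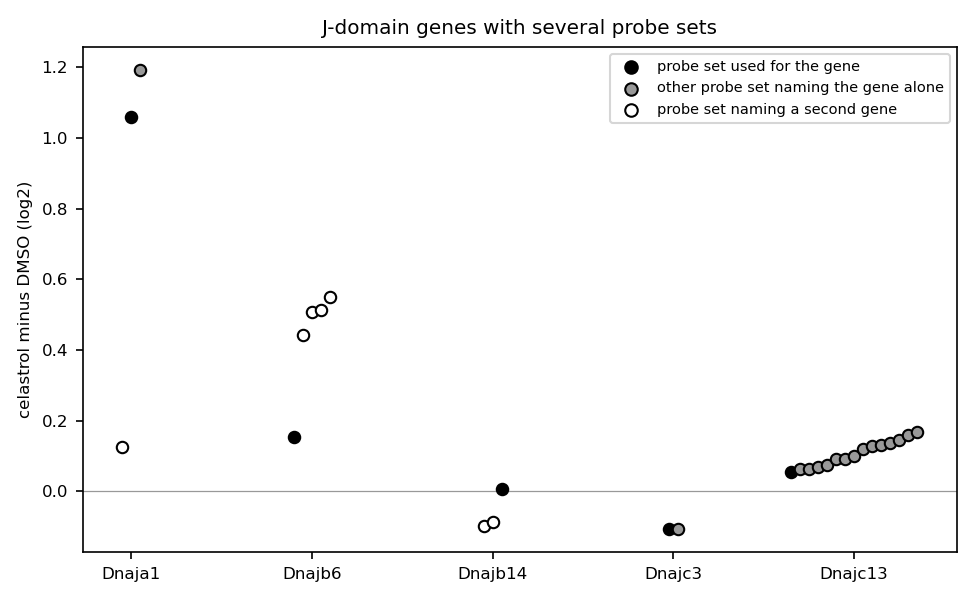
Log2 difference (celastrol minus DMSO, y axis) of every probe set that names any of the 5 J-domain genes with several, 1 point per probe set, sorted by value within a gene. Those of Dnajc13 cluster from 0.06 to 0.17; for Dnaja1 and Dnajb6 the probe sets naming a second gene (open) lie apart from the one used.

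Among genes with several probe sets, Dnaja1 also had a probe set shared with the microRNA gene Mir207, at 10.08 with DMSO and 10.21 with celastrol. Its difference was 0.13, beside 1.06 and 1.19 for the probe sets naming Dnaja1 alone. The shared probe set is annotated to fewer RefSeq transcripts of Dnaja1 than those, and the reason for the gap was not tested. The pair of Dnajc3 probe sets carried identical values and counts as 1 measurement. For Dnajb14 the probe sets that also name Pin4 gave -0.10 and -0.09. They are annotated to a different RefSeq transcript from the probe set naming Dnajb14 alone, and which gene they read was not tested.

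Of 6 members known mainly from testis, 5 were under the limit in both arrays, namely Dnajb3, Dnajb7, Dnajb13, Dnajc5b and Dnajc5g. Dnajb8 was above it, at 6.52 with DMSO and 6.51 with celastrol, where the germ cell markers Ddx4, Dazl and Tnp1 lay under the limit in both arrays and Prm1 and Prm2 above it. The 5 class C genes given no compartment ran from -0.24 for Dnajc4 to 0.16 for Dnajc25, with Dnajc22 at -0.05, Dnajc27 at -0.11 and Dnajc28 at -0.12.

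Partner genes of the HSP70 cycle were set beside the members by compartment. Of 29 listed genes 27 had a probe set of their own and all 27 were detected, with 21 higher, 6 lower and a median of 0.18 beside -0.01 for all detected genes. Over all detected genes 48.1% were higher. Of the 27, 4 were higher by 2-fold or more, where 1.88% of detected genes were. Inside the receptor range lay 19 of the 27, and 8 lay above it, beside 11.2% of all detected genes. The inducible HSP70 gene Hspa1a was at 6.70 with DMSO and 9.02 with celastrol, although the near-identical copy Hspa1b may share its probes. The HSP110 genes Hsph1 and Hspa4l, which exchange nucleotide on HSP70, were 4.08-fold and 2.77-fold higher, and the exchange factor Bag3 was 2.27-fold higher. Stub1, a ubiquitin ligase that binds HSP70 (-0.24), and Hyou1, the HSP110 relative of the ER (-0.22), were lowest.

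The constitutive HSP70 genes of the cytosol and the ER differed less than the highest J-domain genes there, and that of mitochondria differed more. Hspa8, of the cytosol, was at 13.74 with DMSO and 14.06 with celastrol, a difference of 0.32. Hspa5 (BiP), the HSP70 that Dnajb9 serves in the ER, was at 12.37 and 12.53, a difference of 0.17. Hspa9, of mitochondria, was at 11.83 and 12.26, a difference of 0.43, and its exchange factor Grpel1 differed by 0.29. The other mitochondrial exchange factor, Grpel2, was at 8.86 and 8.74, a difference of -0.12. Grpel1 and Grpel2 were each inside the receptor range.

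J-domain genes that carry other symbols lay near 0. Sec63 (0.18), of the ER translocon, Gak (0.11), the auxilin relative of most tissues, and Hscb (-0.07), of mitochondrial iron-sulphur assembly, were all inside the receptor range. Of the partners that pass clients between HSP70 and HSP90, St13 was 1.58-fold higher and Stip1 differed by 0.58.

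**Figure D5:**
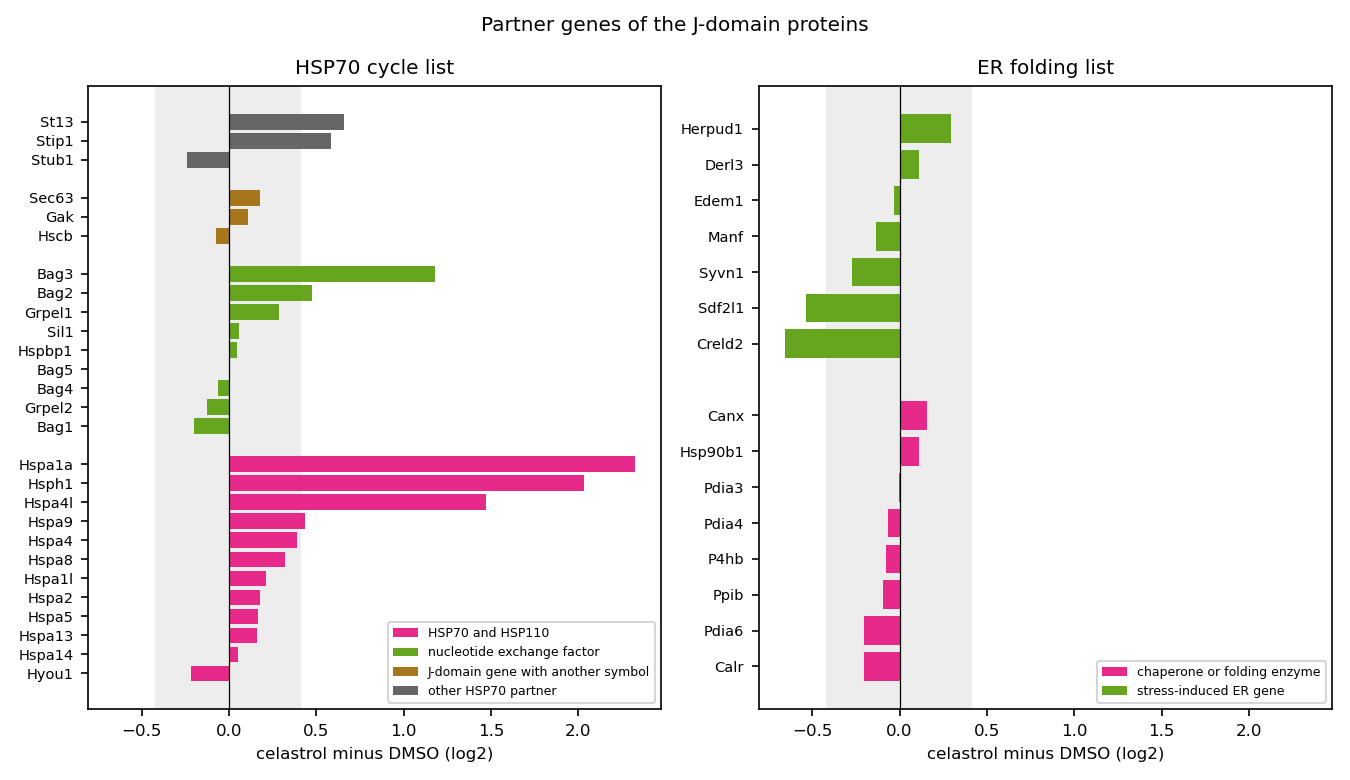
Log2 difference (celastrol minus DMSO, x axis, bars from 0) of 27 detected genes of the HSP70 cycle and 15 ER folding genes by role, 1 array per condition, with the central 95% of receptor probe sets shaded. Hspa1a, Hsph1, Hspa4l and Bag3 extend beyond 1.0 while no ER folding gene does, and Creld2 and Sdf2l1 are the lowest.

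Other ER folding genes are given beside Dnajb9. All 15 listed genes were detected, 4 higher and 11 lower, with a median of -0.08, where 48.1% of detected genes were higher. A 2-fold difference in either direction was seen for 0 of the 15, a count that says little, since 1.88% of all detected genes were 2-fold higher and 0.662% 2-fold lower. Creld2, an ER stress gene, was at 10.96 with DMSO and 10.30 with celastrol, and Sdf2l1, a partner of Dnajb11 in the lumen, was at 10.36 and 9.82. Herpud1, a membrane component of ER-associated degradation, was highest at 0.30, and Canx, the lectin chaperone calnexin, followed at 0.16. Dnajb9 at 1.72 was above every gene of this list, a comparison of values on 2 arrays with no test.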

How the data were processed

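Transcripts of 2 mouse embryonic fibroblast cultures were measured on 1 Affymetrix whole-transcript array each. The authors deposited log2 values from RMA, a method that corrects background, quantile-normalizes probes and summarises each probe set, per the submitters' processing notes. Its version, its settings and any other arrays in the run were not given in the sources used here. RMA shrinks differences near background, and scanner files were not used here. Of 35556 probe sets, 21797 named 1 gene, 1613 several and 12146 none, by GEO's platform annotation. Symbols were updated through a RefSeq table of GRCm38.p6, which held all 45 members. A gene took its probe set with the highest mean, and was detected if either array exceeded the limit. With 1 array per group no test was possible, and the number of arrays limits the precision. The code was tested on simulated data.

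The members and lists were chosen with earlier results of these data known, and compartments and roles were assigned from general knowledge. Any member could be named, with both values given for differences of at least 1.5-fold and for the smallest of each class, and for partner lists the 2 highest and 2 lowest genes and the HSP70 of each compartment. Other genes are named to complete a group, chosen after their values were seen. Alternatives were 2 other detection limits, the mean of probe sets, quantile, lowess (fraction 0.3) and median adjustment, fold thresholds of 1.5 and 3, and class A and B genes alone. Python 3.11.15, numpy 2.4.6, pandas 2.3.3, statsmodels 0.14.6 and matplotlib 3.10.9 were used.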

Additional observations from a re-analysis of the deposited data

Results flagged for a closer look

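The 4 probe sets that name both Dnajb6 and Gm4247, which entered no comparison because they name several genes, were all higher with celastrol by more than the central 95% of receptor probe sets. Their log2 differences were 0.44 (probe set 10354404), 0.51 (10395976), 0.55 (10481868) and 0.51 (10585533). They ran from 11.55 to 11.87 with DMSO and from 12.06 to 12.31 with celastrol. The dimmer probe set naming Dnajb6 alone, which is annotated to a single RefSeq transcript, gave 0.15. That transcript is also annotated to each of the shared probe sets, but which of the genes they read cannot be told apart.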

How the results depend on the processing

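Each of the 5 members at least 2-fold higher kept that call under the other detection limits, averaged probe sets, quantile normalization, lowess and median adjustment, with Dnajb1 between 1.93 and 1.98 and Dnaja1 between 1.05 and 1.13. None of the 234 recomputed member values moved by more than 0.07. Several of these settings could change little or nothing, so the kept calls say little. A detection limit leaves a difference as it is, and median adjustment shifts every difference equally. Averaging acts only on genes with several probe sets, of these 5 Dnaja1 alone. RMA had already quantile-normalized the probes. Many of the 234 values were thus the same by construction. Quantile normalization and the lowess adjustment each raised the count to 6, because Dnajb2 (0.98 as deposited) came to 1.01 and 1.03. A threshold of 1.5-fold gave 6 members higher, and one of 3-fold gave 3, by construction. With class A and B genes alone the cytosolic median was 1.02 in place of 0.13, the ER median 0.049 in place of -0.09, and the mitochondrial median turned to 0.26, the value of Dnaja3, its only such gene. Without a detection limit the median of the testis-enriched genes was 0.10, over 6 genes in place of 1. Medians moving by less than 0.1 on the log2 scale were counted as unchanged. The class medians ran from 0.66 to 0.71 for A, 0.09 to 0.15 for B and -0.11 to -0.06 for C. No paired analysis was possible because each group holds 1 array. For the same reason no replicate could be left out.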
